A study of Mus musculus with 15 samples.

Results

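Among the 1 kb windows of the mouse genome in which CpG methylation was measured in the dentate gyrus, 58 differed widely from mouse to mouse within a housing group while holding an intermediate average level. They were chosen from percent methylation alone. Autosomal CpG positions, each counted once per strand and with a value in every mouse, were averaged in 1 kb windows holding at least 5 such positions, which gave 5180 windows. The mean of each housing group was subtracted, and the pooled standard deviation (SD) over 12 degrees of freedom was taken as the within-group spread. Windows with a mean of 20 to 80% and an SD of at least 15 percentage points were kept, so the large SD is the choice itself and is given only as a description. The other 529 windows with a mean of 20 to 80% had smaller SDs and are called the steadier windows.

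The study used reduced representation bisulfite sequencing (RRBS), which sequences short CpG-rich restriction fragments after bisulfite has converted unmethylated cytosines, on micro-dissected dentate gyrus, the hippocampal field that receives the main cortical input. The animals were 15 female C57BL/6JRj mice, an inbred strain, aged 7.5 months, with 5 in each group. The standard group lived in standard cages for 6 months, the enriched group in an enriched environment for 6 months, and the withdrawal group in enrichment for 3 months and then in standard cages for 3 months. The tissue holds many cell types, so a level is an average over cells, and a change in cell make-up cannot be told apart from a change within cells. Nothing in the labels names cages, litters or library batches. Between 297844 and 444106 CpG positions had a value in a mouse, lowest in standard mouse 1 and highest in withdrawal mouse 4, which is a partial view of depth only, since the files hold percentages without read counts.

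CpG methylation is the addition of a methyl group to cytosine in the sequence CG, kept through cell division by a maintenance methyltransferase that copies it to the new strand. Most CpG-rich gene starts in a mouse tissue are nearly free of it and most of the rest of the genome is highly methylated. Intermediate averages arise where cells or the 2 parental copies differ, and the best known case is the imprinted gene, methylated on the copy from 1 parent. Mice of an inbred strain share their genome sequence, and a small class of loci, such as some retrotransposons of the intracisternal A particle (IAP) family, is known for methylation that differs between genetically identical mice.

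RefSeq promoter sequences held measured CpG positions of 3 member windows in the 250 bases before an annotated start (at least 5 positions). The 2 below were chosen because the first carries every position that defines its window and the second lies in the member window with the most positions, upstream of those that define it. They are printed 5′ to 3′ on the gene's strand, assembly GRCm38.p6, with measured CG pairs in capitals.

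Commd1 upstream, chr11:22972867-22973116, minus strand: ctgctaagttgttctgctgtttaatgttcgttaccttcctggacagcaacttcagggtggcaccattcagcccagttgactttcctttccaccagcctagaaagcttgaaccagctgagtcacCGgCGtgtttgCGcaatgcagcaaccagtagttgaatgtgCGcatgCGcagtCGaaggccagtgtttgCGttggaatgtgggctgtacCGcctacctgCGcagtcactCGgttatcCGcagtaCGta

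Tmem267 upstream, chr13:119488223-119488472, plus strand: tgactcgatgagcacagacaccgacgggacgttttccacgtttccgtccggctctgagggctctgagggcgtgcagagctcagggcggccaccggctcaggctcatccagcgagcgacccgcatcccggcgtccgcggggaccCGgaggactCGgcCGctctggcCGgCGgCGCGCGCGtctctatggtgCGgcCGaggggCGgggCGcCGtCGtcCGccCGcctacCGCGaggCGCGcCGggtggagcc

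In the Commd1 sequence 12 of 13 CG pairs were measured on at least 1 strand, and the 8 positions with values in all mice all lay in it. In the Tmem267 sequence 22 of 39 CG pairs were measured, at 33 strand-specific positions, none of which had a value in every mouse. CCGG, the site cut by MspI, the enzyme most RRBS protocols use, occurred once in the Commd1 sequence and 6 times in the Tmem267 sequence. It was present in 47% of 32817 RefSeq upstream sequences of this length. TGCCGC, the methylated motif bound by the imprinting factor ZFP57, was searched on both strands and was in neither sequence, against 8.68% of the same upstream sequences. GC content was 52.8% and 74.4%.

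The 58 windows lay on every autosome except chromosome 14, with 7 on chromosome 11, 6 on chromosome 10 and 4 each on chromosomes 4, 8 and 17. Their SDs ran from 15.04 to 28.8 points with a median of 17.1, against a median of 8.73 in the steadier windows. The difference between the highest and the lowest mouse was 44.8 to 94.1 points, with a median of 59.9. In 18 windows a mouse had a level under 5%, in 7 a mouse had a level above 95%, and in 8 a mouse was at exactly 0. All 58 windows had a range of levels shared by the 3 housing groups, as had 520 of the 529 steadier windows (98.3%) and 5075 of all 5180 (97.97%). The 3 windows just inside the SD threshold were inside Robo3, an axon guidance receptor gene (chr9:37429001-37430000, 15.04 points), on chromosome 12 (chr12:106196001-106197000, 15.1 points) and on chromosome 11 (chr11:116899001-116900000, 15.2 points). The 3 just outside were inside Wwox (14.7 points), near Prf1 (14.9 points) and near Chst11 (14.9 points).

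The largest SD, 28.8 points, belonged to chr17:87640001-87641000, inside Epcam, the gene for an epithelial cell adhesion molecule. Its 8 positions lay on the plus strand within 49 bases. Its levels were 44.7%, 43.7%, 53.6%, 13.9% and 90.5% in standard mice 1 to 5, 100%, 5.93%, 31%, 58.6% and 95.8% in enriched mice 1 to 5, and 58.2%, 77.6%, 54.3%, 61.1% and 64.7% in withdrawal mice 1 to 5. Enriched mice held both extremes, with 2 above 95% and 1 under 6%, and the withdrawal mice lay close together inside the range of the other groups. The next, chr4:151552001-151553000 inside Camta1, which encodes a calmodulin-binding transcription activator expressed in neurons, had an SD of 26.4 points over 5 plus-strand positions. Its levels were 80%, 6%, 20%, 0% and 48.1% in standard mice 1 to 5, 85.1%, 16.7%, 14.7%, 27% and 23.6% in enriched mice 1 to 5, and 7.08%, 26.4%, 29.7%, 28.8% and 7.45% in withdrawal mice 1 to 5. Most mice of each group were low, and standard mouse 1 and enriched mouse 1 were the highest of their groups by a wide margin.

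The windows at chr5:129887001-129888000 and chr5:124715001-124716000 carried positions near Chchd2, a mitochondrial protein gene, and inside Atp6v0a2, a subunit gene of the vacuolar proton pump. At Chchd2 the levels were 79.1%, 11.1%, 9.71%, 8.74% and 54.6% in standard mice 1 to 5, 44.3%, 69.8%, 26.1%, 25.1% and 28.4% in enriched mice 1 to 5, and 36.6%, 17.1%, 35%, 26.4% and 20.9% in withdrawal mice 1 to 5. Standard mice split into 2 high and 3 low animals, and the withdrawal mice all lay between. The 11 other CpG positions of the Chchd2 window, which the choice did not use because a mouse lacked a value, averaged 2.65%. Of the 6 used positions, 5 formed a plus-strand run and 1 lay on the minus strand. They thus stood beside nearly unmethylated positions in the same 1 kb. At Atp6v0a2 the levels were 100%, 86.8%, 64.5%, 100% and 68.7% in standard mice 1 to 5, 37.4%, 93.8%, 88.4%, 59% and 100% in enriched mice 1 to 5, and 70.6%, 51%, 96.1%, 83.5% and 95.3% in withdrawal mice 1 to 5. This was the most methylated of the 58, and the variation there came from mice falling below a generally high level, the lowest being enriched mouse 1.

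Near Acnat1, an acyl-CoA amino acid transferase gene, the window chr4:49480001-49481000 had an SD of 21 points. Its levels were 28.3%, 43.7%, 30.8%, 47.3% and 61.6% in standard mice 1 to 5, 23.2%, 14%, 32.7%, 14% and 66.3% in enriched mice 1 to 5, and 37.4%, 41%, 51.8%, 27.7% and 94.2% in withdrawal mice 1 to 5. Withdrawal mouse 5 stood above all 14 others. The window chr2:87526001-87527000, between genes and 5035 bases from the olfactory receptor gene Olfr153, had 7 positions within 35 bases. Its levels were 23.9%, 48.7%, 16.4%, 4.55% and 13.1% in standard mice 1 to 5, 2.38%, 43.3%, 4.15%, 16.1% and 64.9% in enriched mice 1 to 5, and 25.3%, 24.9%, 1.06%, 42.2% and 11.9% in withdrawal mice 1 to 5. Low and high mice occurred in each group. At chr10:78520001-78521000, at the end of the olfactory receptor gene Olfr1358, 1 animal made most of the spread. Its levels were 86.3%, 26.7%, 11.1%, 6.67% and 30.6% in standard mice 1 to 5, 23.7%, 21.2%, 10.5%, 0% and 23.6% in enriched mice 1 to 5, and 27.4%, 16.5%, 12.6%, 30.5% and 40.2% in withdrawal mice 1 to 5. Standard mouse 1 held 58.6% of the summed squared deviations, and without it the SD fell from 20.4 to 11.0 points. At chr3:40683001-40684000, inside Intu, a planar cell polarity gene needed for cilia, the SD was 19.8 points. Its levels were 44.8%, 30.9%, 0%, 10.7% and 63.3% in standard mice 1 to 5, 19.3%, 42.2%, 23.1%, 6.49% and 31.1% in enriched mice 1 to 5, and 34.6%, 28%, 14.9%, 33.7% and 65.6% in withdrawal mice 1 to 5. Standard mouse 5 and withdrawal mouse 5 were highest, and standard mouse 3 was at 0.

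**Figure D1:**
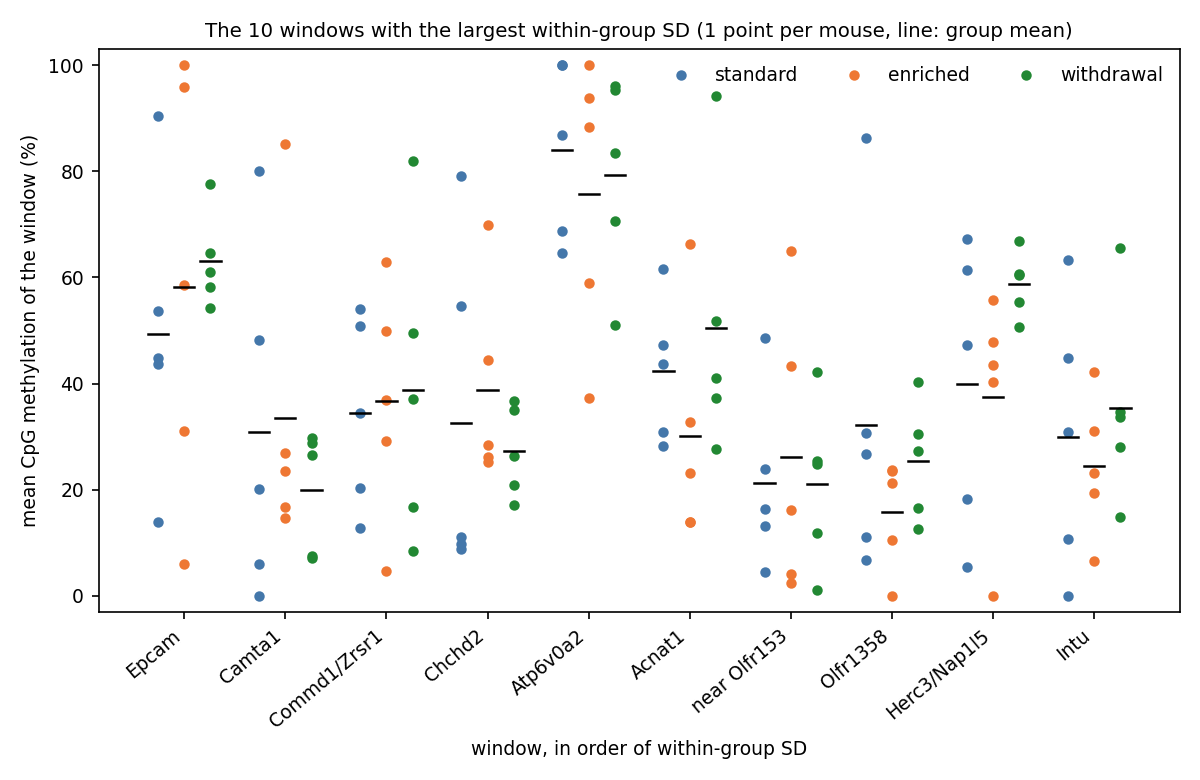
Mean CpG methylation (%) of each of the 10 windows with the largest within-group SD, 1 point per mouse, coloured by housing group, with a line at each group mean. Within a window the points of 1 group spread over much of the axis and the 3 groups overlap, as at Epcam, where enriched mice ran from 5.93 to 100%.

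Of a list of 50 imprinted genes, 48 could be placed and 12 windows lay at them, 5 of which had a mean of 20 to 80%. Among these 5, 2 were members, at Zrsr1 and at Nap1l5. Both genes lie within an intron of a larger gene (Zrsr1 in Commd1, Nap1l5 in Herc3) and are known to be methylated on the maternal copy. The other 3 lay at Gnas (SD 14.6 points, just under the threshold), at H13 with Mcts2 (12.3 points) and at Ddc (10.3 points). Of the 587 windows with a mean of 20 to 80% as a whole, 58 were members.

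The Zrsr1 and Commd1 window, chr11:22972001-22973000, had an SD of 23.6 points. Its 8 positions are those marked in the Commd1 sequence above that had values in all mice, 7 of them on the printed strand. Its levels were 20.4%, 54.1%, 12.8%, 50.8% and 34.4% in standard mice 1 to 5, 36.9%, 29.2%, 4.65%, 50% and 63% in enriched mice 1 to 5, and 8.41%, 16.7%, 81.9%, 37.1% and 49.5% in withdrawal mice 1 to 5. All 3 groups ran from under 15% to above 50%, and withdrawal mouse 3 was highest. A run of positions on the same strand, each at most 50 bases from the next, is called a stretch here, and neighbouring positions of a stretch can lie on the same sequencing read. The deviations of the mice from their group means were close to the same at all 7 minus-strand positions, which form 1 stretch, with a median correlation of 0.984. Other stretches of the same 1 kb followed it less closely. Withdrawal mouse 3 was at 91% on the minus-strand stretch, at 36.9% on the plus-strand stretch just before it, and at 88.1% on 3 plus-strand positions near the start of the window. Directly beside those 3 lay another 7 minus-strand positions, where this mouse was at 7.5%. The 10 mice with a value there ran from 0 to 26.7%. Enriched mouse 1 was at 38% on the minus-strand stretch and at 100% on the plus-strand stretch. Over 14 mice the deviations of these 2 neighbouring stretches correlated at 0.0860, and over 12 mice the 3 positions near the start correlated with the minus-strand stretch at 0.262.

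At Nap1l5, chr6:58906001-58907000, the SD was 20.3 points. Its levels were 18.3%, 47.3%, 61.4%, 5.45% and 67.1% in standard mice 1 to 5, 40.3%, 55.7%, 47.9%, 43.5% and 0% in enriched mice 1 to 5, and 50.7%, 66.9%, 55.4%, 60.4% and 60.7% in withdrawal mice 1 to 5. Enriched mouse 5 and standard mouse 4 were near 0, and the 5 withdrawal mice lay between 50.7% and 66.9%. The 5 positions behind these levels sat on the minus strand within 45 bases and had a median correlation of 0.932 with each other. The nearest minus-strand stretch, 9 positions without a complete set of mice, gave 86.8% in withdrawal mouse 5 and 2.31% in withdrawal mouse 3, where the chosen stretch gave 60.7% and 55.4%. Over 12 mice the deviations of the 2 stretches correlated at 0.177. Other mice were low on several stretches: standard mouse 4, at 5.45% on the chosen one, was at 0%, 17.4% and 10.9% on the others, and enriched mouse 5 was at 0% on the chosen and 0% on the 1 other stretch with a value. Over all 18 unused positions the correlation with the window was 0.361.

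The window with the most positions, chr13:119488001-119489000 at Tmem267, a gene for a transmembrane protein, holds the second printed sequence. Its 17 complete positions, on both strands, lie after that sequence and gave an SD of 15.5 points. Its levels were 18.5%, 45.5%, 61.7%, 66% and 36.4% in standard mice 1 to 5, 77.1%, 64.5%, 32%, 67% and 62.4% in enriched mice 1 to 5, and 59%, 73.2%, 55.2%, 69.3% and 57.7% in withdrawal mice 1 to 5. Standard mice 1 and 5 and enriched mouse 3 were lowest. Between the strands the correlation was 0.756, taken between the mean of the 8 plus-strand and the mean of the 9 minus-strand positions over 15 mice, and these positions belong to those that chose the window. Standard mouse 1 was at 0% on the 9 minus-strand positions and at 25.6% and 52.8% on the 2 plus-strand stretches of 4 positions. Those plus-strand stretches correlated with the minus-strand stretch at 0.729 and 0.523, and with each other at 0.383. The 33 positions of the printed upstream sequence were not used in the choice. They averaged 86.2%, and their SD between mice was 4.64 points. Within that highly methylated sequence both strands of 1 CG pair were nearly unmethylated, at 0.758% in 11 mice and 4.85% in 14 mice, and so was a plus-strand position of the variable run, at 3.47% in 15 mice.

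**Figure D2:**
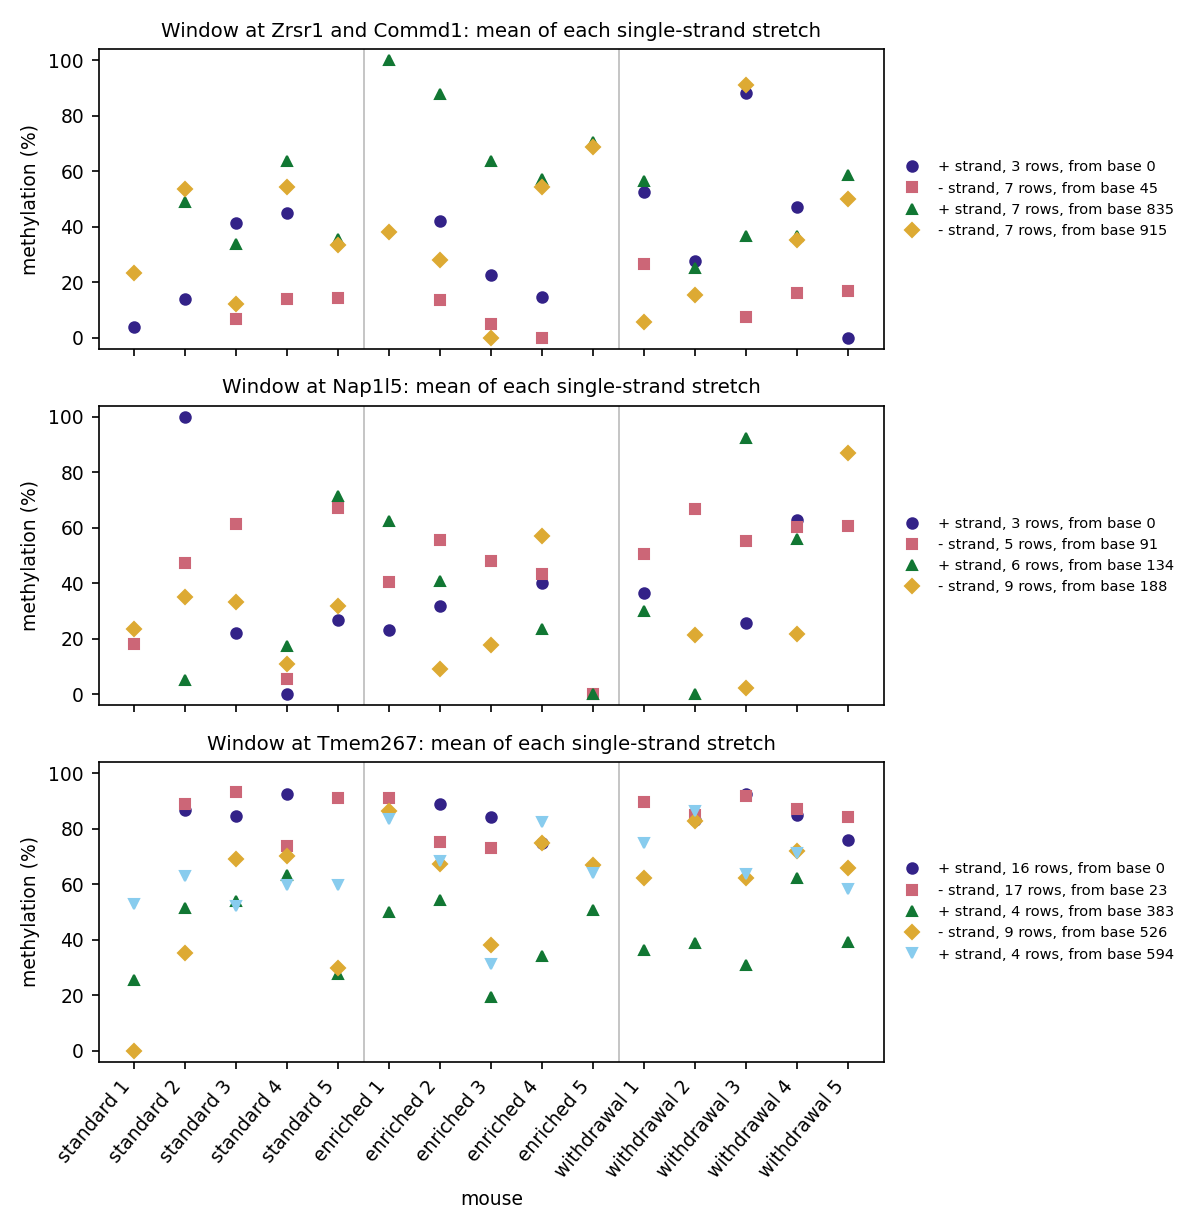
Mean methylation (%) of each run of same-strand CpG positions in 3 member windows for every mouse, with vertical lines between housing groups. Distances in the key are in bases from the first position of the window. Runs of 1 window can disagree within a mouse, as in withdrawal mouse 3 at Zrsr1, and the 2 upstream runs at Tmem267 stay high in every mouse with a value.

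The layout of the measured positions differed between the 58 and the steadier windows. All positions fell in 1 stretch in 34 of 58 members (58.6%) and in 145 of 529 steadier windows (27.4%). Exactly 5 positions, the smallest number allowed, were present in 38 members (65.5%) and in 266 steadier windows (50.3%), and only 1 strand was measured in 40 (69.0%) and 249 (47.1%). The median distance from first to last position was 69 bases in members and 159 bases in steadier windows. Read the other way, 18.99% of windows with 1 stretch were members, 8.70% of those with 2 and 2.99% of those with 3 or more. The share was 12.5% with 5 positions, 7.60% with 6 to 9 and 3.03% with 10 or more. The part of this layout in the SDs was not tested.

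The 31 members not described one by one had SDs of 15.3 to 19.4 points and means of 21.1 to 77.5%. Of these, 12 lay inside genes, among them the receptor phosphatase genes Ptprm and Ptprr, the potassium channel gene Kcnh5, the semaphorin gene Sema5a and the transcription factor gene Ebf1, 3 lay at gene ends (Tars, Celf4 and Dnmbp) and 16 between genes. Their positions formed 1 stretch in 15 and numbered exactly 5 in 23.

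**Figure D3:**
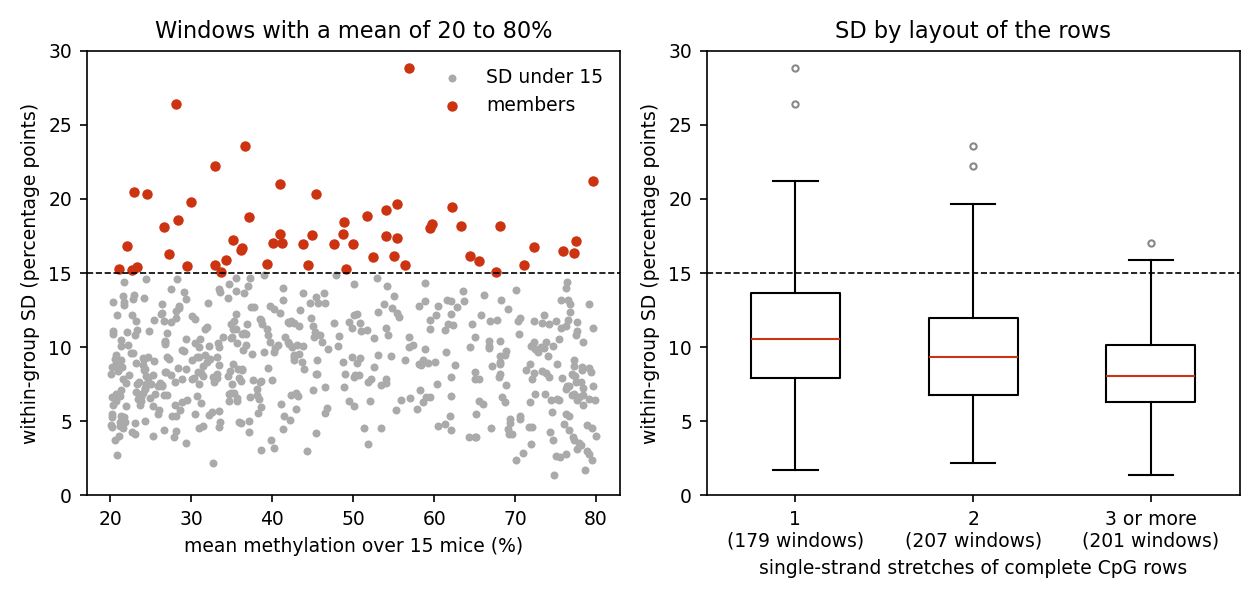
Left, within-group SD (percentage points) against mean methylation (%) for the 587 windows with a mean of 20 to 80%, members in red above the dashed line at 15 points. Right, the same SDs by the number of same-strand stretches, as boxes of the quartiles with whiskers to 1.5 box lengths: the medians are 10.6, 9.36 and 8.06 points for 1, 2 and 3 or more stretches.

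Members sat at gene ends, within 1 kb of either end of a protein-coding gene, in 11 cases (18.97%), inside genes in 20 (34.5%) and between genes in 27 (46.6%). The steadier windows had 13.8%, 38.8% and 47.4% in these places, and all 5180 windows had 44.7%, 24.96% and 30.4%. The shares of members were closer to those of the steadier windows than to those of all windows. The methylation percentage at cytosines outside CG had a median of 0.749% in members and 0.738% in steadier windows.

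The deviations were also taken at positions that the choice did not use. Of the members, 25 had no such position, 15 had 1 or 2, and 18 had at least 3, of which 17 could be compared over at least 12 mice. In these 17 the deviations of the unused positions correlated with those of the window at a median of 0.361, with 3 above 0.5 and 2 below 0. Leaving out 1 mouse gave medians from 0.211, without standard mouse 5, to 0.388, without withdrawal mouse 5. In 166 steadier windows the median was 0.0590. Both are over the mice of 1 window, whose positions share a library and its depth, and no test was made. Unused positions close to used ones on the same strand can also lie on the same reads. At Intu all 10 unused positions lay less than 100 bases from a used one. The 3 above 0.5 were at Intu (0.629, over 5 plus-strand and 5 minus-strand positions, most of them beyond the end of the used run), at chr18:83997001-83998000, 13627 bases from the homeobox gene Tshz1 (0.607), and at chr6:13134001-13135000, 21440 bases from Vwde (0.509). Where the unused positions lay at least 100 bases away, the median was 0.203 over 10 members and -0.0298 over 53 steadier windows. The largest values among these members, after the window near Tshz1, were 0.558 at chr11:113625001-113626000 (Slc39a11 and Sstr2, a zinc transporter gene and a somatostatin receptor gene), 0.481 at Chchd2, 0.349 at chr19:59133001-59134000 near the homeobox gene Vax1, and 0.239 at chr11:114423001-114424000. At Chchd2 the far positions were nearly unmethylated, with an SD of only 2.78 points. Over all unused positions the value was -0.0745 at Slc39a11 and Sstr2 and -0.0703 at chr11:114423001-114424000.

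The window near Tshz1 had the highest correlation at far unused positions of the 10. Its levels were 52.7%, 72.1%, 56.3%, 84.3% and 88.6% in standard mice 1 to 5, 59.1%, 29.3%, 63.4%, 64.6% and 39.8% in enriched mice 1 to 5, and 77.9%, 81.5%, 36.7%, 41% and 44% in withdrawal mice 1 to 5. Enriched mouse 2 was lowest and standard mouse 5 highest. Its 5 unused positions lay on the same strand, at lower coordinates than the 7 used ones. They gave 83.6% in standard mouse 5, 21.8% in enriched mouse 5 and 0% in withdrawal mouse 3. In these mice the used positions gave 88.6%, 39.8% and 36.7%. In other mice the 2 stretches were far apart: withdrawal mouse 2 was at 34.3% on the unused and 81.5% on the used positions, and standard mouse 2 at 25.1% and 72.1%. Over 12 mice their deviations correlated at 0.559. An opposite case was chr12:20845001-20846000, between genes on chromosome 12. Its levels were 59%, 63%, 43.3%, 37.2% and 26.3% in standard mice 1 to 5, 36.9%, 18.8%, 51.6%, 68.5% and 88.1% in enriched mice 1 to 5, and 86.2%, 72.7%, 54%, 52.6% and 73.3% in withdrawal mice 1 to 5. Its 6 minus-strand positions ran from 8% in enriched mouse 2 to 100% in enriched mouse 5, and its 2 plus-strand positions, at 51.2% and 52.2% in the same mice, were correlated with them at -0.425.

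Within a stretch the deviations of 2 positions had a median correlation of 0.602 in the 58 members, values that helped to choose the windows, and 0.314 in 523 steadier windows. Between stretches of a window the median was 0.253 in the 22 members that allowed it, with 3 above 0.5 and 5 below 0, and 0.00823 in 311 steadier windows. The within and between values are thus over different numbers of windows. Between strands it was 0.240 in 11 members and 0.0903 in 230 steadier windows. The positions that chose the windows are part of the between-stretch values and make up all of the between-strand values. A window whose runs deviate together reaches a large SD more easily, so nothing is read from these differences. In 5 pairs of a member and the adjoining window the median was 0.189.

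Individual mice contributed unequally. Standard mouse 5, with 395153 CpG values, held 12.6% of the squared deviations summed over the 58 windows. It was the mouse farthest from its group in 12 of them. Standard mouse 1, the animal with the fewest CpG values (297844), held 10.5% and was farthest in 9, and enriched mouse 5, with 348148 values, held 9.01%. Withdrawal mouse 4, with the most CpG values, held 2.87% and was farthest in none. In the steadier windows standard mouse 5 was again highest, at 9.86%, and withdrawal mouse 4 again lowest, at 3.17%. In 5 members (8.62%) a single mouse held at least 50% of the squared deviations, as in 22 of 529 steadier windows (4.16%). In members these were standard mouse 5 in 3 windows, standard mouse 1 at Olfr1358 and enriched mouse 5 at Psmd11, a proteasome subunit gene (chr11:80429001-80430000). The median share of the farthest mouse was 28.1% in members and 28.5% in steadier windows. The number of members in which a mouse lay above its group mean ran from 20 of 58 in withdrawal mouse 3 to 34 in enriched mice 1 and 5, and was 30 in standard mice 1 and 5. The median correlation of deviations between 2 member windows was 0.0204, and the leading principal component took 18.7% of their variance, with 57.97% of it from standard mouse 5. In the steadier windows the median correlation was 0.0211, and the leading component took 12.9%, with 60.4% of it from the same mouse.

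**Figure D4:**
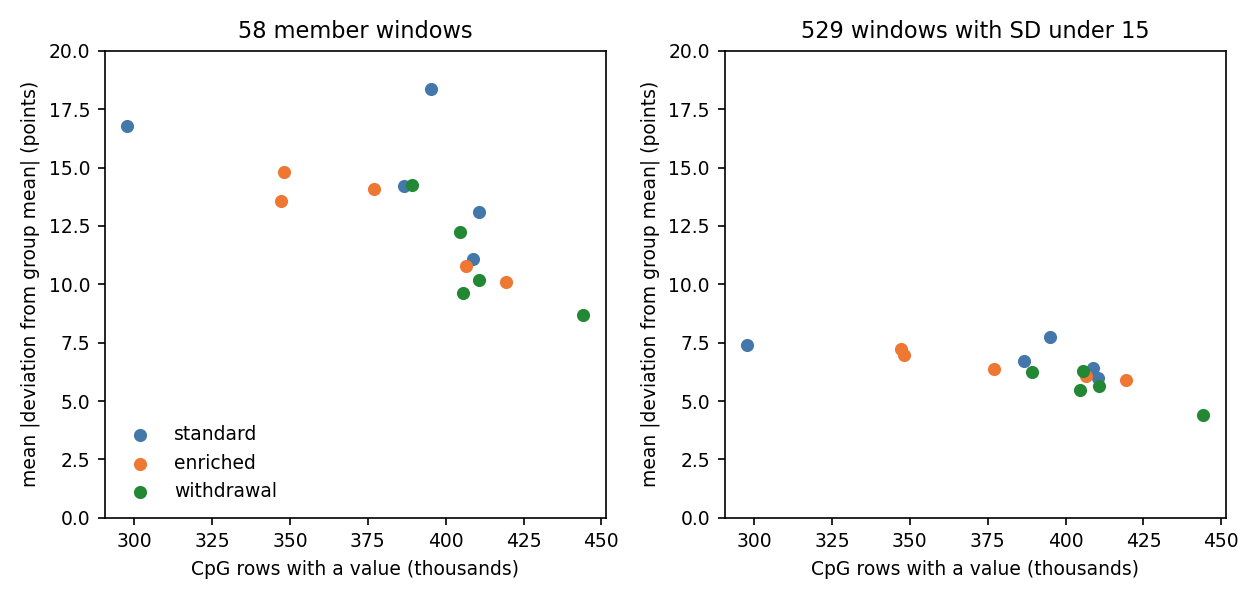
Mean absolute deviation of each mouse from its group mean (percentage points) against the number of CpG positions with a value in that mouse (in units of 1000), for the 58 members and the 529 steadier windows. Standard mice 1 and 5 are highest in members, withdrawal mouse 4, with the most values, is lowest in both panels, and the vertical position differs because the members were chosen for their SD.

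The median SD within a group was 19.6 points for standard, 15.3 for enriched and 14.2 for withdrawal mice over the 58 windows. The standard SD exceeded the withdrawal SD in 44 windows and the enriched SD in 35. The same 5 mice of a group supply every window, and a window can have entered through 1 widely spread group. These counts were not taken over other windows, and nothing is read from them. Since the choice used the pooled SD, the medians were also taken over all 587 windows with a mean of 20 to 80%, where they were 9.03, 8.52 and 7.38 points. Without standard mouse 1 the standard median was 18.1 points in members and 8.50 in all 587, and without standard mouse 5 it was 16.8 and 8.37. The number of CpG values per mouse was 297844 to 410580 for standard, 347148 to 419359 for enriched and 389351 to 444106 for withdrawal mice. Its part in the SDs was not tested.

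Whether the mean level of these windows differed between housing groups was tested with limma on a log2 ratio of methylated to unmethylated percent over all 3932 windows with a range of at least 5 points. The group means over the 58 windows were 45.6% ± 3.18 for standard housing, 45.5% ± 4.13 for enrichment and 48.6% ± 3.03 after withdrawal (SD, n = 5 each). No window passed an adjusted p under 0.05 in any of the 3 comparisons (background 0% each), and none of the 58 did. At an unadjusted p under 0.05 there were 219 windows (5.57%) for enriched against standard, 168 (4.27%) when withdrawal was set against standard, and 146 (3.71%) when it was set against enriched, among them 1, 2 and 0 members. A test of any difference among the groups gave 162 such windows (4.12%), none of them a member. Group means of members lay apart by medians of 5.75, 6.07 and 7.56 points in the 3 comparisons, beside 1.59, 1.44 and 1.48 points over all tested windows. Means of 5 widely spread values differ more, so this follows from the choice by SD and nothing is read from it. On the log2 ratio scale of the test, enriched mice were the higher in 32 of 58 windows against standard. Withdrawal mice were the higher in 35 of 58 against each of the other groups. The share over all tested windows was not taken, so nothing is read from these counts.

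The members with the smallest p for level show the size that could not be told from the spread. Near Tshz1 the mean was 70.8% ± 16.1 (SD, n = 5) in standard and 51.3% ± 15.8 (SD, n = 5) in enriched mice (difference -19.6 points, limma adjusted p = 0.871). At chr6:13134001-13135000, near Vwde, it was 26.9% ± 24 (SD, n = 5) in standard and 43.3% ± 8.16 (SD, n = 5) in withdrawal mice (difference 16.4 points, limma adjusted p = 0.994). There the 4 lower standard mice lay under every withdrawal mouse while standard mouse 5, at 69.2%, lay above all of them. Without that mouse the difference was 27.0 points (limma adjusted p = 0.137). Between genes at chr11:114423001-114424000, withdrawal exceeded standard by 19 points, and at chr12:20845001-20846000 by 22 points (limma adjusted p = 0.994 for each). At Tmem267 the standard mean of 45.6% ± 19.3 (SD, n = 5) stood beside 60.6% ± 16.9 (SD, n = 5) in the enriched group and 62.9% ± 7.88 (SD, n = 5) after withdrawal (against standard, limma adjusted p = 0.890 and 0.994). Without standard mouse 1 these differences, 14.99 and 17.3 points with all mice, were 8.203 and 10.5 points. At Acnat1 and at Nap1l5 withdrawal exceeded enriched mice by 20.4 and 21.4 points (limma adjusted p = 0.996 for each). The first was 9.44 points without withdrawal mouse 5 and the second 12.0 points without enriched mouse 5. Other differences were seen inside Macrod1 (chr19:7189001-7190000), inside Ctnna3 (chr10:63583001-63584000) and at chr10:98684001-98685000, between genes. In Macrod1, a mono-ADP-ribosylhydrolase gene, enriched mice were lower than standard mice by 16.9 points on average, and the difference was -9.93 points without enriched mouse 5. In Ctnna3, an alpha-catenin gene, withdrawal mice were lower than enriched mice by 16.7 points. At the chromosome 10 window between genes enriched mice were higher than standard mice by 16.2 points, and by 8.82 points without standard mouse 5. Their limma adjusted p-values were 0.890, 0.996 and 0.890.

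Whether mice of a group lay farther apart in 1 housing condition than in another was tested by limma on each mouse's absolute deviation from its group mean. Over the 3932 windows this called 99 (2.52%) for enriched against standard, 47 (1.2%) when withdrawal was set against standard, and 67 (1.7%) when it was set against enriched, at an adjusted p under 0.05. Members called numbered 1, 0 and 2, which are given as a description: the same deviations chose the members, so a window can have entered through the spread of 1 group. A large pooled SD leaves more room for such a difference. This test is also liberal: on simulated windows left unchanged, unadjusted p-values under 0.05 came more often than that threshold allows. In the data they were found in 18.5%, 15.6% and 14.5% of all windows, and in 13, 10 and 4 of the 58 members. Such shares alone cannot tell a liberal test from real differences in spread. With deviations taken from the group median, which is the stricter form, no window was called in any comparison, and unadjusted p-values under 0.05 fell to 97, 68 and 70 windows. These are smaller shares of the 3932 than a threshold of 0.05 gives by chance. That form may miss differences, and nothing is read from its lack of calls.

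With that limit, the members called were at Sh3d19 and Epcam. Sh3d19 encodes an adaptor protein with SH3 domains, and its window chr3:86085001-86086000 held 6 minus-strand positions. Its levels were 46.5%, 61.2%, 41.3%, 49.5% and 57.4% in standard mice 1 to 5, 84.1%, 46.2%, 47.6%, 95.8% and 18% in enriched mice 1 to 5, and 55.5%, 47%, 46%, 49.9% and 64% in withdrawal mice 1 to 5. The 5 standard and the 5 withdrawal mice lay between 41.3% and 64%, and the enriched mice ran from 18% to 95.8%. The mean deviation, scaled for group size, was 28.3 points under enrichment, 7.25 in standard cages and 6.51 after withdrawal (limma adjusted p = 0.0435 and 0.0442). The within-group SD was 31.5 points in enriched mice, 8.08 in standard and 7.44 in withdrawal mice, so the window passed the SD threshold through the enriched mice and had to differ in spread. At Epcam the scaled mean deviation was 35.6 points in enriched and 7.13 in withdrawal mice (difference -28.5 ± 7.17 SE, limma adjusted p = 0.0218). Leaving out 1 mouse removed these calls in many cases: at Sh3d19 without any of standard mice 1 and 4, enriched mice 1, 4 and 5 or withdrawal mice 1, 3 and 4 against standard, or without any of enriched mice 1, 4 and 5 or withdrawal mice 1 to 4 against withdrawal, and at Epcam without enriched mouse 2 or 5. Without enriched mouse 4 the difference at Sh3d19 moved from 21.0 to 13.05 points against standard and from -21.8 to -13.8 points for withdrawal against enriched. At Chchd2 the scaled deviation was 30.6 points in standard and 7.71 in withdrawal mice (limma adjusted p = 0.0529). Chchd2 was called when any 1 of standard mice 2, 3 and 4 or enriched mice 1, 2 and 4 was left out (limma adjusted p = 0.0195 to 0.0446), and the difference moved from -22.9 to -11.7 points without standard mouse 1. At Nap1l5 the scaled deviation was 25.1 points in standard and 5.19 in withdrawal mice (limma adjusted p = 0.102). At Psmd11 it was 24.8 in enriched and 8.92 in standard mice (limma adjusted p = 0.145). Both passed without standard mouse 2 (limma adjusted p = 0.0229 and 0.0422). Over all 3932 windows, dropping that mouse raised the calls from 47 to 139 for withdrawal against standard, the Nap1l5 comparison. For enriched against standard, the Psmd11 comparison, they rose from 99 to 192. The fits that called Chchd2 made 54 to 145 calls for withdrawal against standard. These passes thus came with more calls everywhere, on deviations that also chose the members, and nothing is read from them. The Nap1l5 difference moved from -19.9 to -12.98 points without standard mouse 4, and that at Psmd11 from 15.9 to 3.50 points without enriched mouse 5. At Psmd11 too the enriched mice carried the SD, 28.3 points against 10.4 in standard and 10.4 in withdrawal mice.

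None of the 58 windows lay at a gene of the other lists examined. Clustered protocadherin genes, neuronal adhesion genes chosen at random by single neurons, had 14 windows, 9 of them with a mean of 20 to 80% and a median SD of 8.53 points. Genes reported beside variably methylated IAP elements had 6 windows within 10 kb, of which only that near Sfi1 was of intermediate level, with an SD of 2.99 points. Methylation enzymes and readers had 8 windows, with 1 of intermediate level at Mbd2 (9.32 points). Marker genes of the cell types the dissection could hold gave 3 windows for dentate granule cells, 7 for pyramidal cells, 4 for interneurons, 3 for astrocytes, 2 for endothelial cells and pericytes, and none for the oligodendrocyte lineage, microglia, and choroid plexus with ependyma. Of these, 1 was of intermediate level, at the astrocyte gene Aldh1l1 (11.3 points), so the cell make-up of each mouse could not be read from them.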

How the data were processed

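RRBS percent methylation per cytosine and strand was deposited by the authors for dentate gyrus of 15 mice, 5 per housing group, without read counts. Per the submitters' processing notes, the tools were Trim Galore 0.4.0, cutadapt 1.8.1, Bismark 0.16.1 and methylKit 1.5.2, with build mm10. Their settings and any minimum coverage are not given in the sources used here, so depth is unknown and no counting interval was computed. Samples were grouped by the housing label, and each was taken as 1 mouse.

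The table runs through the chromosomes more than once. The rows before the first restart were taken as CpG positions (455836 in all, 109658 autosomal with values in all mice). Every one of the 39816 of them that could be compared with a RefSeq GRCm38.p6 promoter sequence lay on a CG pair. Genes were 21896 protein-coding RefSeq genes, with a flank of 1 kb.

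limma 3.58.1 in R 4.3.3 fitted 3 group means to all mice, on log2((percent + 5)/(100 - percent + 5)) for level and on absolute deviations from the group mean, scaled for group size, for spread. It used 3932 windows with a range of at least 5 points, two-sided tests and Benjamini-Hochberg adjustment over all of them. The fit was tested on simulated data. A correlation is Pearson's r over mice of deviations from group means, from unused positions averaged over those a mouse has (at least 3 positions and 12 mice).

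The 58 members, the gene lists and the tests were chosen with earlier results of these data known, and the limit of 50 bases for a stretch was chosen after seeing the data. Windows named in the text are the 10 with the largest SD, those with the smallest p for level or spread, those with the most positions or the largest correlation at unused positions, those at the threshold, and those at listed genes. Alternatives were thresholds, row minimums, shifted windows, averaged strands, scales, filters, a replicate block and leaving out each mouse.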

Additional observations from a re-analysis of the deposited data

Results flagged for a closer look

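In each member window, the highest and the lowest mouse of every housing group of 5 was compared with its nearest neighbour by Dixon's test. It marked 12 of 174 groups (6.90%), where chance marks about 1 in 20 (5%) of groups that were not selected. The same levels chose these windows for a large SD, so 5% is not the rate for them and nothing is read from the difference. The mice concerned were 6, and 4 of the 12 marks were standard mouse 5.

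Of the 12, 7 lay in windows named in the report. Inside Camta1 enriched mouse 1 was at 85.1%, and the next enriched mouse was at 27.0%. At Nap1l5 enriched mouse 5 was at 0, with the next at 40.3%. At chr3:10088001-10089000, between genes and with 9 positions within 40 bases, withdrawal mouse 2 was at 54.6% and the next withdrawal mouse at 24.3%. At chr1:91611001-91612000, also between genes, enriched mouse 2 was at 31.9% and the next enriched mouse at 64.4%. At chr6:13134001-13135000, near Vwde, standard mouse 5 was at 69.2% and the next at 23.6%. At chr12:106196001-106197000 withdrawal mouse 3 was at 32.6% and the next at 71.5%. Inside Robo3 enriched mouse 5 was at 53.5% and the next enriched mouse at 30.6%.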

How the results depend on the processing

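The number of members followed the thresholds: 142 windows at an SD of at least 12 points, 9 at 20, 565 with at least 3 complete positions, 1 with at least 10, and 24 with at least 2 stretches (chosen after seeing the data). It was 40 for a mean of 30 to 70%, 59 with windows shifted by 500 bases and 55 with the strands of a CG pair averaged. Leaving out 1 mouse gave 48 to 65, and 20 of the 58 were kept in all 15 cases. For level, no window was called under any alternative. Spread calls (enriched against standard, withdrawal against standard, withdrawal against enriched) were 461, 273 and 303 with at least 3 complete positions and 0, 0 and 0 with deviations from the group median. They were 87 for withdrawal against standard with no filter on range and 34 for withdrawal against enriched on the log ratio scale. Leaving out 1 mouse gave 96 to 192, 39 to 145 and 51 to 113. The calls at Sh3d19 and Epcam were also lost with no filter on range and with robust eBayes, and that at Epcam with at least 3 complete positions. The cause was not tested. The median correlation at unused positions ran from 0.211 to 0.388 when 1 mouse was left out.

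No pairing of mice by replicate number was seen in the deviations. Over all tested windows those of same-numbered mice of different groups correlated at -0.0668 to 0.0439, and those of other pairs at -0.0735 to 0.0956. Only 2 of 15 mice correlated best with their own number. With the replicate number as a block the members were 56, the level calls stayed at 0, and the spread calls were 131, 75 and 82, with Chchd2 called for withdrawal against standard (limma adjusted p = 0.0429). Depth limits every value, since a percentage in a mouse may rest on few reads.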

Other observations

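The X chromosome was left out of the choice. In these female mice, which silence 1 X in each cell, it held 162 windows by the same minimum, 88 of them with a mean of 20 to 80%. An SD of at least 15 points was reached in 13 of the 88 (14.8%), beside 58 of the 587 autosomal windows with such a mean. The median SD of the 88 was 10.7 points. The part of X silencing in these values was not tested.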
